A study of Mus musculus with 40 samples.

Results

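Aqp2 encodes aquaporin-2, the vasopressin-regulated water channel of the collecting duct, and it lies in a small cluster of aquaporin genes. Expression of Aqp2 was set beside that of 9 other genes chosen by symbol: its cluster neighbours Aqp5 and Aqp6, the flanking genes Racgap1, Faim2 and Bcdin3d, and the aquaporins Aqp1, Aqp3, Aqp4 and Aqp11 of other chromosomes. All 10 symbols were found, once each, among 55414 genes. The question asked of them was whether the loss of Aqp2 RNA in cells labelled as lacking ATF1, CREB1 and CREM was shared by its neighbours or by other aquaporins.

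The cells were mpkCCD, an immortalized line of mouse kidney collecting duct, grown on permeable Transwell supports. Every library, controls included, came from cells that had received dDAVP at 0.1 nM for 72 hours, a synthetic analogue of vasopressin, so no library shows the level without hormone. The 22 libraries fall into 3 runs of consecutive library numbers. Unmodified control clones 1 to 5 accompanied 5 libraries labelled ATF1-KO, control clones 6 to 8 accompanied 3 labelled ATF1/CREB1-KO, and control clones 9 to 11 accompanied 3 labelled ATF1/CREB1/CREM-KO. Whether the replicates of a knockout were separate clones is not stated, so p-values measure the spread between these libraries, which may be technical. The 18 rescue samples were not analysed here. Values are TPM, which give each transcript as a length-corrected share of its library, with every library scaled to the same total. They hold no read numbers, so depth is unknown.

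Vasopressin binds the V2 receptor on the blood side of principal cells, raises cyclic AMP and activates protein kinase A. The hormone moves aquaporin-2 vesicles to the urinary side of the cell within minutes, and over days it raises the amount of Aqp2 RNA. ATF1, CREB1 and CREM are the CREB-family transcription factors, which are phosphorylated by protein kinase A and bind the cyclic AMP response element. Water taken up through aquaporin-2 leaves principal cells through aquaporin-3 and aquaporin-4 of the opposite membrane.

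In the GRCm38 mouse annotation (GENCODE M21), Aqp2 spans positions 99579055 to 99584547 of chromosome 15 on the plus strand. The other cluster genes follow on the same strand, with the 5′ end of Aqp5 11.7 kb and that of Aqp6 22.3 kb downstream of the 5′ end of Aqp2. Racgap1 has its 5′ end 72.6 kb downstream and is read in the opposite direction. Faim2 and Bcdin3d have theirs upstream, at -50.9 kb and -104.3 kb, also on the minus strand. No annotated gene overlaps any of these 6. Aqp3 is on chromosome 4, Aqp1 on chromosome 6 and Aqp11 on chromosome 7.

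Promoter sequence was compared because the factors named in the labels bind a short DNA element. RefSeq windows of GRCm38.p6, from 250 bases before to 50 bases after the start, were used for 8 of the 10 genes. Faim2 had no entry and Aqp4 was left out, so neither was searched. The full element TGACGTCA was in none of them and was found in 1.79% of 32851 mouse promoter windows. Its short form, TGACG or CGTCA on the other strand, was found once, in Aqp2, with its first base at position -211 from the start. The short form occurs in 20.8% of all windows, so its presence in 1 of 8 describes these windows and does not set Aqp2 apart. The letters TATAA were present on the given strand in Aqp2 and Aqp3, against 17.5% of all windows. The window of Aqp5 lies mostly within an exon of the GENCODE annotation, which places the 5′ end of that gene further upstream. The 250 bases before the RefSeq start are shown for Aqp2 (chr15:99578806-99579055, plus strand), Aqp6 (chr15:99600950-99601199, plus strand) and Bcdin3d (chr15:99474731-99474980, minus strand), 3 genes lower in the ATF1/CREB1/CREM-KO libraries, with the short form of the element in capitals and each read 5′ to 3′.
Aqp2: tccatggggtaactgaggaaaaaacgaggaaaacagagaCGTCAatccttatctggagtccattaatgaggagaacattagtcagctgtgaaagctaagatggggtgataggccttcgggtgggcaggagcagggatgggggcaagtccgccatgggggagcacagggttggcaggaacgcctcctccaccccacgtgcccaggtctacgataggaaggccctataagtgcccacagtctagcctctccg
Aqp6: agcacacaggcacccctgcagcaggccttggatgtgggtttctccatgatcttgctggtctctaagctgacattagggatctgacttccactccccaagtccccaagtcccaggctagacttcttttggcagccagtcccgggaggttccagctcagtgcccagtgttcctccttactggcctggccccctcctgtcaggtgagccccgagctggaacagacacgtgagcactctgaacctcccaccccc
Bcdin3d: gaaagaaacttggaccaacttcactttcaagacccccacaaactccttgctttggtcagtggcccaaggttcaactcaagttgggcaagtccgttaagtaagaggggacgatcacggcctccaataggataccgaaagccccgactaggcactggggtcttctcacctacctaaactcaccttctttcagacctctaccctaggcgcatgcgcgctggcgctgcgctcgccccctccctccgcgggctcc

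Markers of principal cells were present. Of 13 principal cell markers, Avpr2, the vasopressin V2 receptor, ranged from 33.4 to 227 TPM and Fxyd4, a sodium pump regulator, from 51.8 to 4198 TPM, whereas Elf5 and Kcnj1 stayed at or under 0.53 TPM. The summed level of the principal cell markers, Aqp2 included, was 1665 to 3802 TPM in control clones 9 to 11 and 780 to 1591 TPM in the ATF1/CREB1/CREM-KO libraries. Aqp2 alone was 641 to 2279 TPM in those control clones and 15.1 to 16.1 TPM in those libraries. The sums therefore contain the fall of Aqp2 and are not a separate result about the other markers. The intercalated cell markers Atp6v1g3, Foxi1, Slc4a1 and Slc26a4 were at 0 or reached at most 0.16 TPM, while Atp6v1b1 and Rhcg were present. Cd68 carried the immune list, with Ptprc averaging 0.40 TPM over the 22 libraries and Cd3e 0.016 TPM. That list summed to 5.00 to 8.02 TPM in control clones 9 to 11 and 2.28 to 3.35 TPM in the ATF1/CREB1/CREM-KO libraries. There Cd68 changed by -1.04 and was called lower (limma adjusted p = 0.0371), as were 5.26% of all genes tested. The proximal tubule markers rested on Lrp2 and summed to 19.98 to 21.6 TPM in control clones 9 to 11 and 1.38 to 25.5 TPM in the ATF1/CREB1/CREM-KO libraries, where Lrp2 changed by -2.02 and did not pass (limma adjusted p = 0.205). The summed markers of endothelium, fibroblasts and the thick ascending limb reached at most 1.95 TPM in any library. Ribosomal protein genes took 7.29% to 15.4% of TPM in the run of control clones 6 to 8 and 2.73% to 4.20% in the others, so levels were compared with own-run control clones. The mitochondrial share was 2.06% to 2.63% in the ATF1/CREB1/CREM-KO libraries and 1.21% to 1.42% in their control clones. Transcripts of the targeted genes remained. In the ATF1/CREB1-KO libraries Atf1 was 15.1 to 23.7 TPM against 23.3 to 26.2 and Creb1 2.72 to 3.86 TPM against 4.98 to 6.69. Atf1 was 17.5 to 37.8 TPM in the ATF1-KO libraries against 37.8 to 49.0 in their control clones, and in the ATF1/CREB1/CREM-KO libraries it was 23.7 to 40.8 TPM against 39.8 to 40.5. There Creb1 was 18.2 to 19.4 TPM against 35.9 to 39.0 while Crem was 26.0 to 33.8 TPM against 20.0 to 24.9. How the genes were edited is not given in the sources used here, so transcript levels neither establish nor contradict these labels, which are used below as names.

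Aqp2 RNA fell 97.9-fold in the ATF1/CREB1/CREM-KO libraries. Its level was 1627, 641 and 2279 TPM in control clones 9, 10 and 11 and 15.1, 16.1 and 15.3 TPM in ATF1/CREB1/CREM-KO replicates 1, 2 and 3. The control clones differed among themselves by up to 3.56-fold, the knockout libraries by 1.06-fold, and the groups were far apart. Mean levels were 1516 ± 825 TPM (SD, n = 3) and 15.5 ± 0.499 TPM (SD, n = 3), or 1.02% of the control mean. The log2 change was -6.34 with a standard error of 0.43 (limma on log2(TPM + 1), Benjamini-Hochberg adjusted p = 0.00086), the lowest of the 13258 genes tested in that comparison. Fewer cells with Aqp2 RNA and less of it per cell cannot be told apart in these bulk samples. In rank order of TPM within a library, Aqp2 stood between 17 and 490 in the 11 control clones and between 8186 and 8371 in these 3 libraries. It stayed past the threshold when each of the 6 libraries was left out in turn, with a change of -6.87 to -5.95.

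**Figure D1:**
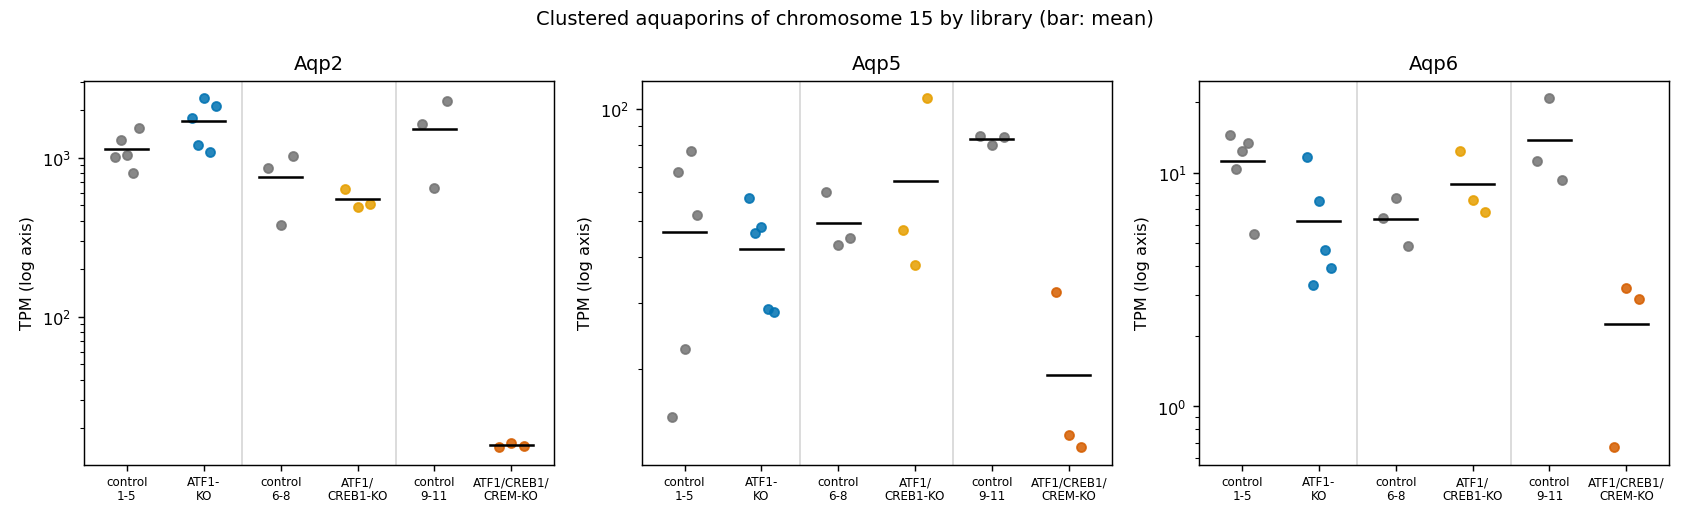
TPM on a log axis of Aqp2, Aqp5 and Aqp6 in each of 22 libraries, in 3 runs separated by vertical lines; points are libraries and bars are means. The 3 ATF1/CREB1/CREM-KO libraries lie at 15.1 to 16.1 TPM for Aqp2, and for Aqp5 and Aqp6 they lie below control clones 9 to 11 by a smaller distance.

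In the ATF1/CREB1-KO libraries the Aqp2 values lay inside the range of their control clones. They were 637, 492 and 508 TPM, against 855, 379 and 1029 TPM in control clones 6, 7 and 8. Control clone 7 was below every knockout library. The log2 change was -0.36 with a standard error of 0.37 (limma adjusted p = 0.775), and its 95% interval of -1.23 to 0.52 does not reach the change in the ATF1/CREB1/CREM-KO libraries. The 2 changes were compared directly as the own-run change in ATF1/CREB1/CREM-KO minus that in ATF1/CREB1-KO. For Aqp2 this difference was -5.98 with a standard error of 0.57 (limma adjusted p = 9.38e-06), and Aqp2 was among 25 of 13295 genes past the threshold, or 0.188%.

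In the ATF1-KO libraries Aqp2 was 1773, 1199, 2351, 1084 and 2123 TPM, against 1006, 1285, 1041, 798 and 1537 TPM in control clones 1 to 5. The 3 highest knockout values exceeded every control value and the other two lay among them. The log2 change was 0.56 with a standard error of 0.24 (limma adjusted p = 0.638). By mean level the order ran from the ATF1/CREB1/CREM-KO libraries through ATF1/CREB1-KO, control clones 6 to 8, control clones 1 to 5 and control clones 9 to 11 to ATF1-KO at 1706 ± 556 TPM (SD, n = 5). In that order only the first step, from the ATF1/CREB1/CREM-KO libraries, separated neighbours without overlap. The order crosses runs, and the run of control clones 6 to 8 differs from the others in ribosomal protein share. It lists levels and is not an own-run comparison.

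The decrease was not confined to Aqp2. Of the 10 genes, 6 had a mean of at least 1 TPM over control clones 9 to 11 and the ATF1/CREB1/CREM-KO libraries and could be tested. Of these, 4 were lower past the threshold, Aqp2, Aqp5, Aqp6 and Bcdin3d, and none was higher. Over all genes tested 9.17% were called, 5.26% as lower and 3.91% as higher. With median-ratio scaling the lower calls were 46.9% of all calls, against 57.4% without it. Faim2, Aqp1, Aqp4 and Aqp11 were too low to test. Of the 4 calls, that of Aqp2 held whichever library was left out, and the others did not, as given with each gene. None of the 6 genes tested in the ATF1/CREB1-KO comparison was called, where 0.0715% of all genes were. None of 7 was called in ATF1-KO, where the share of all genes called was 0.00% and 1014 of 13318 genes had an unadjusted p under 0.05.

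Aqp5 encodes aquaporin-5, a water channel best known from salivary, lacrimal and airway glands. It was at 84.8, 80.1 and 84.5 TPM in control clones 9 to 11 and at 32.2, 13.2 and 12.3 TPM in the ATF1/CREB1/CREM-KO libraries. The groups did not overlap, and replicate 1 was the highest of the knockout libraries. The mean fell 4.32-fold, to 23.1% of control, with a log2 change of -2.19 and a standard error of 0.34 (limma adjusted p = 0.0144). The decrease ranked 79th of 13258. Without replicate 1 it was -2.61 (adjusted p = 3.23e-05). The call held in 2 of the 6 fits that left out a library, with adjusted p up to 0.0737, and was lost against all 11 control clones at -1.50 (adjusted p = 0.236). Against all 11 the median change of all genes was itself 0.28, and control clones 1 and 3 had 14.8 and 22.6 TPM, inside the range of the knockout libraries.

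Outside that run Aqp5 showed wide scatter and no call. Control clones 1 to 5 were at 14.8, 67.7, 22.6, 77.3 and 51.8 TPM and the ATF1-KO libraries at 57.8, 46.4, 48.1, 29.0 and 28.4 TPM. All 5 knockout values fell inside the control range, and the log2 change was 0.04 (95% interval -0.90 to 0.97, adjusted p = 0.986). Control clones 6 to 8 were at 59.7, 43.0 and 44.98 TPM and the ATF1/CREB1-KO libraries at 47.2, 38.0 and 107 TPM. That difference was 0.24 (95% interval -0.68 to 1.16, adjusted p = 0.857), with replicate 3 the highest of all 22 libraries.

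Aqp6 encodes aquaporin-6, an intracellular channel of acid-secreting intercalated cells that also conducts anions. Its level was 11.2, 20.8 and 9.28 TPM in control clones 9 to 11 and 0.67, 3.22 and 2.89 TPM in the ATF1/CREB1/CREM-KO libraries. Here replicate 1 was the lowest, the reverse of Aqp5, and the groups did not overlap. The mean fell 6.08-fold and the log2 change was -2.21 with a standard error of 0.44 (limma adjusted p = 0.0288), the 75th lowest of 13258. The summed intercalated cell markers were 81.8 to 143 TPM in control clones 9 to 11 and 68.6 to 99.1 TPM in these libraries. Atp6v1g3 was at 0 throughout. Of the 2 markers tested, Atp6v1b1 changed by -0.07 (limma adjusted p = 0.822) and Rhcg by -2.78 (adjusted p = 0.121). The part of these markers in the Aqp6 difference was not tested. The Aqp6 call held only without replicate 1 among the 6 fits that left out a library (adjusted p 0.00972 to 0.101). Against all 11 control clones the change was -1.84 (adjusted p = 0.0314), and it was lost with no filter on low values (adjusted p = 0.0722).

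In the ATF1-KO libraries Aqp6 was 11.7, 3.30, 7.54, 4.67 and 3.93 TPM, against 14.5, 10.4, 12.4, 13.3 and 5.45 TPM in control clones 1 to 5. Most knockout values were below most control values, with overlap through control clone 5 and replicate 1. The log2 change was -0.81 with a standard error of 0.32, and it did not pass (limma adjusted p = 0.623). The ATF1/CREB1-KO libraries were at 12.3, 7.61 and 6.79 TPM and control clones 6 to 8 at 6.38, 7.76 and 4.87 TPM. There the change was 0.41 (95% interval -0.21 to 1.03, adjusted p = 0.672).

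By mean TPM the decreases of Aqp5 and Aqp6, 4.32-fold and 6.08-fold, were smaller than the 97.9-fold decrease of Aqp2. The change of each gene minus that of Aqp2 in the same libraries was tested with limma, with each gene's own variance. It was 4.15 with a standard error of 0.68 for Aqp5 (adjusted p = 0.00386) and 4.13 with a standard error of 0.97 for Aqp6 (adjusted p = 0.0131). Values of log2(TPM + 1) cannot be negative. Aqp6, at a mean of 13.7 TPM in control clones 9 to 11, could therefore not have reached the -6.34 of Aqp2. The sign of its contrast was fixed in advance, and Aqp5, at a mean of 83.1 TPM, could only just have matched Aqp2. The same contrast was past the threshold for 99.5% of all genes, so it does not separate Aqp2 from its neighbours in particular. Most genes were too low in control clones 9 to 11 to fall as far as Aqp2, so that share was largely fixed in advance. In control clones 9 to 11 the log2 ratio of Aqp2 to Aqp5, each as TPM + 1, was 2.98 to 4.74, and in the ATF1/CREB1/CREM-KO libraries it was -1.05 to 0.30. Aqp5 was thus above Aqp2 in replicate 1 and slightly below it in the other two. An exact two-sided permutation test of this ratio gave p = 0.1, the smallest that 20 splits of 3 against 3 allow, and p = 0.00275 against all 11 control clones, the smallest of 364 splits. The second test exchanges libraries across runs and takes no account of the differences between runs. The ratios of Aqp2 to Aqp6, Racgap1 and Bcdin3d gave the same 2 values, in a family of 8 tests. The fall of Aqp2 enters every ratio, also that to Racgap1, which was not called. These p-values therefore cannot tell the partner genes apart, and nothing about the neighbours is read from them.

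The own-run changes of Aqp5 and Aqp6 in ATF1/CREB1/CREM-KO were not separated from those in ATF1/CREB1-KO when p-values were adjusted over all genes. The difference was -2.43 with a standard error of 0.71 for Aqp5 (limma adjusted p = 0.286) and -2.62 with a standard error of 0.59 for Aqp6 (adjusted p = 0.104). It stayed between -2.87 and -1.99 for both when each of the 22 libraries was left out, and never passed.

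**Figure D2:**
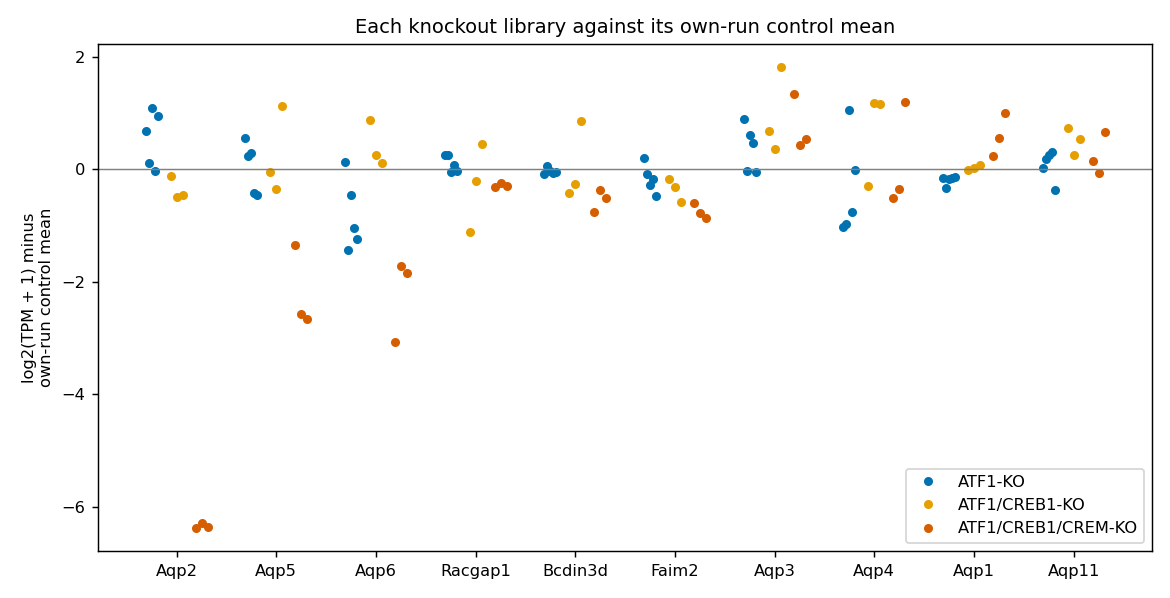
Each knockout library's log2(TPM + 1) minus the mean of its own-run control clones, for the 10 genes; each point is 1 library, coloured by label. Aqp2 in the ATF1/CREB1/CREM-KO libraries sits near -6.3, Aqp5 and Aqp6 between -3.1 and -1.3, and the remaining genes within 2 of 0.

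Of the genes flanking the aquaporin cluster, Bcdin3d and Racgap1 changed less than Aqp5 and Aqp6, and Faim2 was too low to test. Bcdin3d, an RNA methyltransferase that acts on the 5′ phosphate of histidine tRNA, was at 21.5, 23.8 and 23.6 TPM in control clones 9 to 11 and at 13.2, 17.5 and 15.7 TPM in the ATF1/CREB1/CREM-KO libraries. All 3 knockout values were below all 3 control values. The mean was 67.3% of control, with a log2 change of -0.55 and a standard error of 0.13, just past the threshold (limma adjusted p = 0.0491). That call held in 1 of the 6 fits without a library, the one without replicate 1, and was lost with no filter on low values (adjusted p = 0.0911), with median-ratio scaling (0.0646) and with run as a covariate (0.167). Against all 11 control clones the change was -0.30 (adjusted p = 0.713).

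In the other runs Bcdin3d was not called. It was 21.9, 24.1, 22.5, 22.0 and 22.3 TPM in the ATF1-KO libraries and 22.98, 21.0, 30.5, 19.9 and 22.7 TPM in control clones 1 to 5, a change of -0.04 (95% interval -0.27 to 0.20, adjusted p = 0.941). The ATF1/CREB1-KO libraries had 8.49, 9.49 and 22.0 TPM and control clones 6 to 8 had 12.7, 13.3 and 9.33 TPM. Replicate 3 was above all 3 control clones, and the other two lay near the lowest of them. That change was 0.06 (95% interval -0.78 to 0.90, adjusted p = 0.964). Replicate 3 of ATF1/CREB1-KO, whose ribosomal protein share of 7.29% was the lowest of its run, was the highest of its run for Aqp5, Racgap1, Bcdin3d and Aqp3. The part of composition in those values was not tested.

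Racgap1 encodes a subunit of centralspindlin, needed for cytokinesis. It was at 176, 223 and 172 TPM in control clones 9 to 11 and at 152, 159 and 153 TPM in the ATF1/CREB1/CREM-KO libraries. The groups did not overlap, but the log2 change of -0.29 (standard error 0.11, 95% interval -0.56 to -0.02) missed the threshold (limma adjusted p = 0.163). It turned to 0.36 against all 11 control clones, where control clones 6 to 8 had 26.6, 37.3 and 29.6 TPM. The Racgap1 level was lower in the run of control clones 6 to 8 than in the other runs, which overlapped. It was 186, 186, 240, 228 and 199 TPM in control clones 1 to 5, and 13.6, 26.7 and 42.6 TPM in the ATF1/CREB1-KO libraries. The ATF1-KO libraries had 246, 246, 200, 217 and 202 TPM. Own-run changes were 0.10 in ATF1-KO (adjusted p = 0.807) and -0.29 in ATF1/CREB1-KO (adjusted p = 0.829).

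Faim2, an inhibitor of Fas-induced cell death that is mostly known from neurons, stayed at or under 1.59 TPM and was not tested. It was at 1.59, 0.87 and 0.68 TPM in control clones 9 to 11 and at 0.33, 0.18 and 0.10 TPM in the ATF1/CREB1/CREM-KO libraries. It was also below its control clones in every ATF1/CREB1-KO library, at 0.94, 0.76 and 0.46 TPM against 1.35, 1.16 and 1.09 TPM, a separation shown by 12.4% of the genes tested there. The ATF1-KO libraries, at 0.71, 0.41, 0.22, 0.32 and 0.07 TPM, overlapped with control clones 1 to 5 at 0.79, 0.64, 0, 0.97 and 0.26 TPM. By mean TPM it was at 19.4% of control in ATF1/CREB1/CREM-KO. In that comparison and in ATF1/CREB1-KO its control means were 1.05 and 1.20 TPM, and it missed the filter through the knockout libraries. With no filter on low values, its log2 change in ATF1/CREB1/CREM-KO was -0.75 (limma adjusted p = 0.106).

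**Figure D3:**
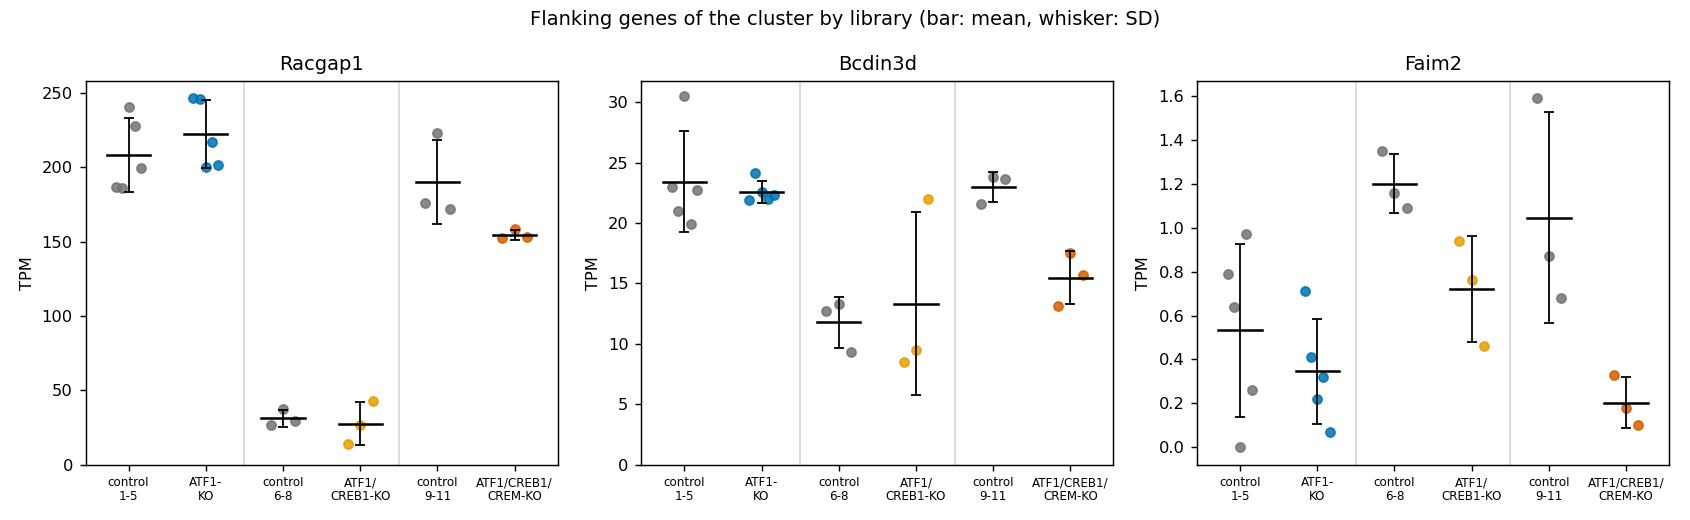
TPM of Racgap1, Bcdin3d and Faim2 in each library; points are libraries, bars are means and whiskers are SD. In the ATF1/CREB1/CREM-KO libraries all 3 genes lie below control clones 9 to 11 without overlap, and Racgap1 is under 43 TPM throughout the run of control clones 6 to 8.

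All 6 chromosome 15 genes were thus below control clones 9 to 11 in every ATF1/CREB1/CREM-KO library. Over all genes tested in this comparison 20.2% showed that separation and 14.5% the opposite one. Within 500 kb of the 5′ end of Aqp2 the annotation has 55 genes, of which 52 are in the table and 22 could be tested. The 4 called lower were the members named above, and none was called higher, against 5.26% and 3.91% of all genes tested. The median log2 change of the 22 was -0.37, against -0.05 over all genes, and 18 of the 22 were below 0, against 55.5% of all genes. Without Aqp2, Aqp5 and Aqp6, 15 of 19 were below 0, with a median of -0.29.

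Among the uncalled neighbours, 6 were picked by their adjusted p in this comparison. The one with the lowest log2 change was Gpd1, the cytosolic glycerol-3-phosphate dehydrogenase, 138.5 kb downstream of Aqp2. It was at 128, 131 and 138 TPM in control clones 9 to 11 and at 16.4, 63.1 and 66.9 TPM in the ATF1/CREB1/CREM-KO libraries, a change of -1.65 with a standard error of 0.50 (limma adjusted p = 0.088). Replicate 1 was far below the other two, and without it the change was -1.02 (adjusted p = 4.25e-04), when 3317 genes in all were called. Lima1, an actin-binding protein, was at 157, 168 and 148 TPM against 62.6, 107 and 114 TPM, a change of -0.78 (adjusted p = 0.0771), and without replicate 1 of -0.51 (adjusted p = 0.00614). The other 4 stayed uncalled without replicate 1, with adjusted p between 0.0659 and 0.122. The formin Fmnl3 changed by -0.52 (adjusted p = 0.127), and Spats2, Mcrs1 and the transcript Gm49494 by -0.35, -0.38 and -0.59. Gpd1, Lima1, Fmnl3, Spats2 and Mcrs1 overlap other annotated genes, whose reads a kit that does not mark strand cannot separate.

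Replicate 1 of ATF1/CREB1/CREM-KO was low along chromosome 15 as a whole. Over 519 genes of that chromosome its median difference from own-run control clones was -0.30, against -0.03 over all genes. In replicates 2 and 3 the chromosome 15 medians were -0.04 and -0.02. A shift in the other direction was seen in ATF1/CREB1-KO replicate 2, with a chromosome 15 median of 0.15 against -0.10 over all genes. All 5 ATF1-KO libraries had chromosome 15 medians, of -0.10 to -0.01, below their medians over all genes. Without replicate 1 of ATF1/CREB1/CREM-KO, Aqp5, Aqp6 and Bcdin3d were called lower, at -2.61, -1.79 and -0.44, and Aqp2 was called as well. That fit called 3317 of 13233 genes, 56.2% of them as lower. The part of the chromosome 15 shift in the values of replicate 1 was not tested. Atf1 is itself on chromosome 15, 648.8 kb downstream of Aqp2 with 32 annotated genes between them. Of the 14 between that could be tested, the 2 called lower were Aqp5 and Aqp6, and none was called higher, against 5.26% and 3.91% of all genes.

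In the other 2 comparisons no gene within 500 kb was called, of 24 tested in ATF1/CREB1-KO and of 23 tested in ATF1-KO. The shares called over all genes tested were 0.0715% and 0.00%. The medians of the genes within 500 kb were 0.07 and -0.04, against -0.03 and -0.00 over all genes. In ATF1/CREB1-KO 11 of the 24 were below 0, against 53.1% of all genes. In ATF1-KO 15 of the 23 were below 0, and 14 of 20 without Aqp2, Aqp5 and Aqp6, against 51.0% of all genes. Whether the neighbourhood as a whole differed between labels was not tested.

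**Figure D4:**
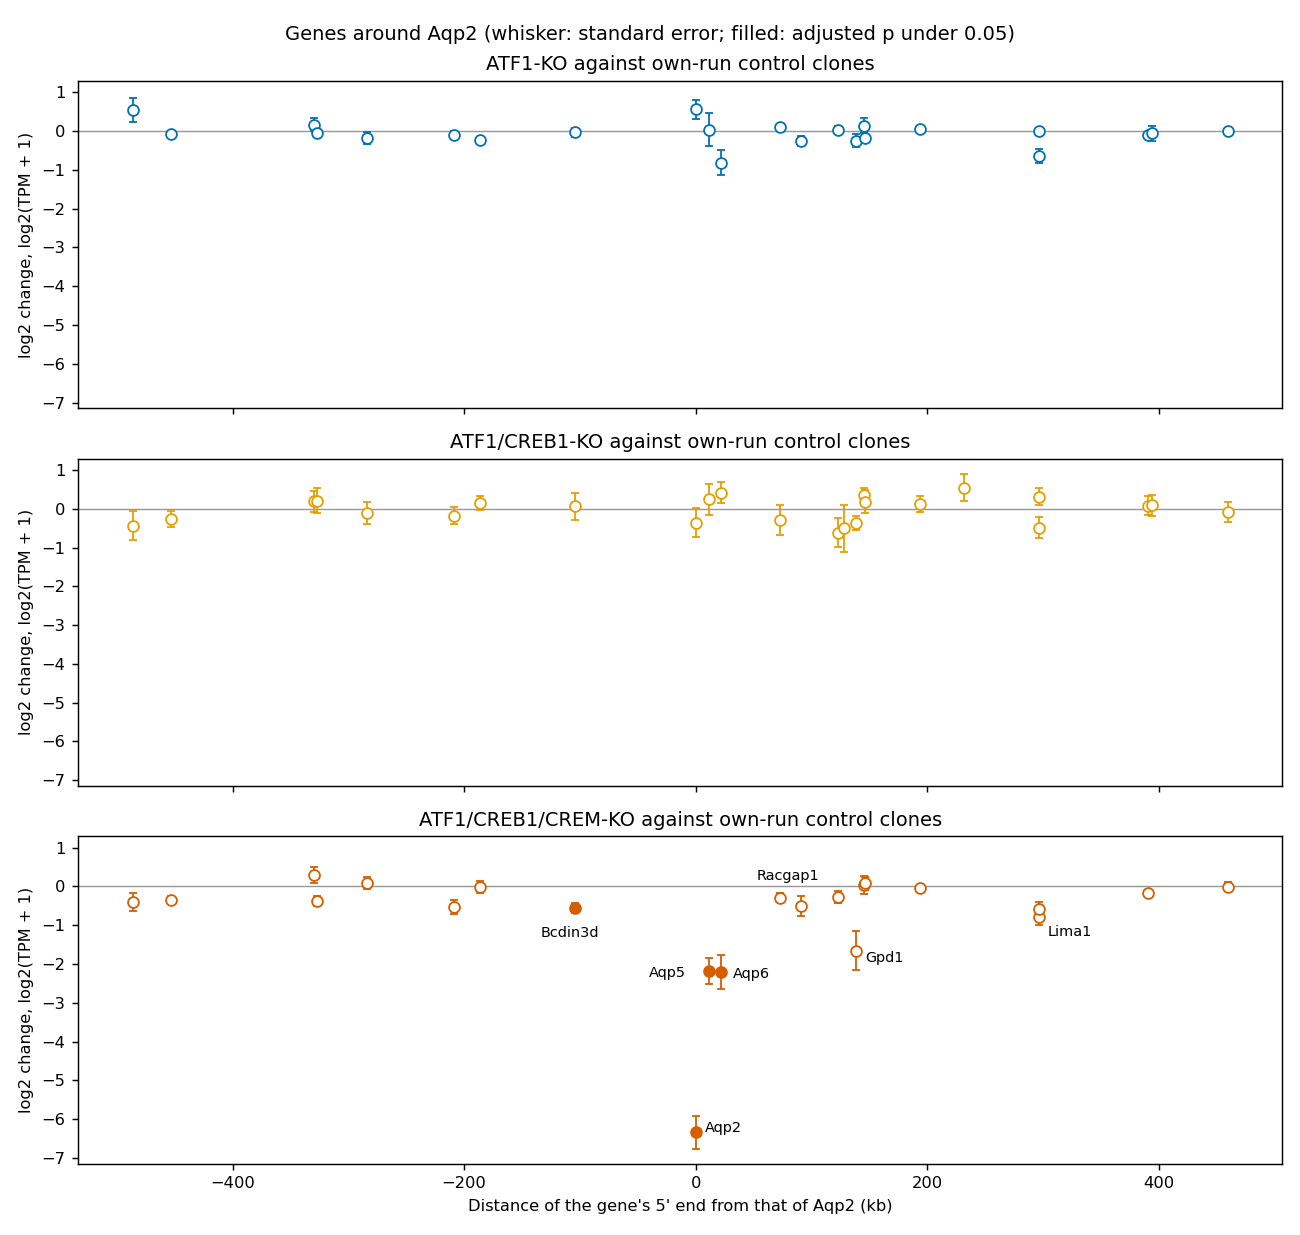
Log2 change with its standard error against the distance of each gene's 5′ end from that of Aqp2 in kb, within 500 kb, for the 3 knockout labels; filled points passed the threshold. In the ATF1/CREB1/CREM-KO panel Aqp2 is at -6.34, Aqp5 and Aqp6 are near -2.2, Bcdin3d is at -0.55, and 18 of 22 points lie below 0. No point is filled in the ATF1/CREB1-KO and ATF1-KO panels, where 0.0715% and 0.00% of all genes tested were called.

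Of the aquaporins of other chromosomes only Aqp3 could be tested in ATF1/CREB1/CREM-KO, so the others could not have been called there. Aqp3 was above control clones 9 to 11 in every ATF1/CREB1/CREM-KO library. Aqp3, the channel of the basolateral membrane of principal cells, was at 5.86, 2.16 and 5.91 TPM in control clones 9 to 11 and at 12.3, 6.18 and 6.67 TPM in the ATF1/CREB1/CREM-KO libraries. The lowest knockout value was just above the highest control value. The log2 change of 0.76 with a standard error of 0.38 did not pass (limma adjusted p = 0.251), and its 95% interval was -0.15 to 1.68. It differed from the change of Aqp2 by 7.10 with a standard error of 0.37 (own variance, adjusted p = 0.000822). At a control mean of 4.64 TPM, Aqp3 could not have fallen as far as Aqp2 on log2(TPM + 1). The sign of that difference was fixed in advance, and 99.5% of all genes passed the same contrast.

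Aqp3 was likewise above its control clones in every ATF1/CREB1-KO library, at 1.87, 1.30 and 5.33 TPM against 0.63, 0.81 and 0.97 TPM. There too the change, 0.95 with a standard error of 0.40, did not pass (limma adjusted p = 0.518), and 6.67% of all genes tested showed that separation. Aqp3 passed the filter in that run only through the knockout libraries. The ATF1-KO libraries were at 11.7, 5.69, 9.45, 8.43 and 5.63 TPM and control clones 1 to 5 at 6.23, 4.52, 5.42, 7.18 and 6.22 TPM. Those groups overlapped, and the change was 0.37 (adjusted p = 0.695).

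Aqp4 encodes the second basolateral channel of principal cells and was scattered near 0. It lies outside chromosome 15 and overlaps another annotated gene, whose reads cannot be told from its own without strand. It was at 0.51, 0.88 and 0.02 TPM in control clones 9 to 11 and at 0, 0.12 and 2.25 TPM in the ATF1/CREB1/CREM-KO libraries. In the ATF1/CREB1-KO libraries it was at 0.03, 1.88 and 1.82 TPM, against 0.24, 0.64 and 0 TPM in control clones 6 to 8. Only in the ATF1-KO comparison did it pass the filter, and there only through the control clones. There the control clones ran from 0 to 3.47 TPM and the knockout libraries from 0 to 3.24 TPM, with a change of -0.34 (standard error 0.54, limma adjusted p = 0.889).

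Aqp1, the channel of proximal tubule and descending thin limb, was listed at 0 in control clones 9 to 11 and at 0.18, 0.47 and 0.99 TPM in the ATF1/CREB1/CREM-KO libraries. No fold is given against values of 0. In the other 16 libraries it ranged from 0 to 0.47 TPM, so replicate 3 of ATF1/CREB1/CREM-KO was the highest of all. Aqp11, an aquaporin of the endoplasmic reticulum, was at 0.34, 0.64 and 0.28 TPM in control clones 9 to 11 and at 0.56, 0.35 and 1.24 TPM in the ATF1/CREB1/CREM-KO libraries, which overlapped. The ATF1/CREB1-KO libraries had 1.05, 0.48 and 0.79 TPM, above control clones 6 to 8 at 0.21, 0.36 and 0.16 TPM, and neither gene was high enough to test. The remaining aquaporins of the table, Mip, Aqp7, Aqp8, Aqp9 and Aqp12, reached at most 0.87 TPM in any library and none was tested. Aqp12 was listed at 0 throughout. Aqp2 was the most abundant aquaporin in each of the 19 libraries outside ATF1/CREB1/CREM-KO.

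**Figure D5:**
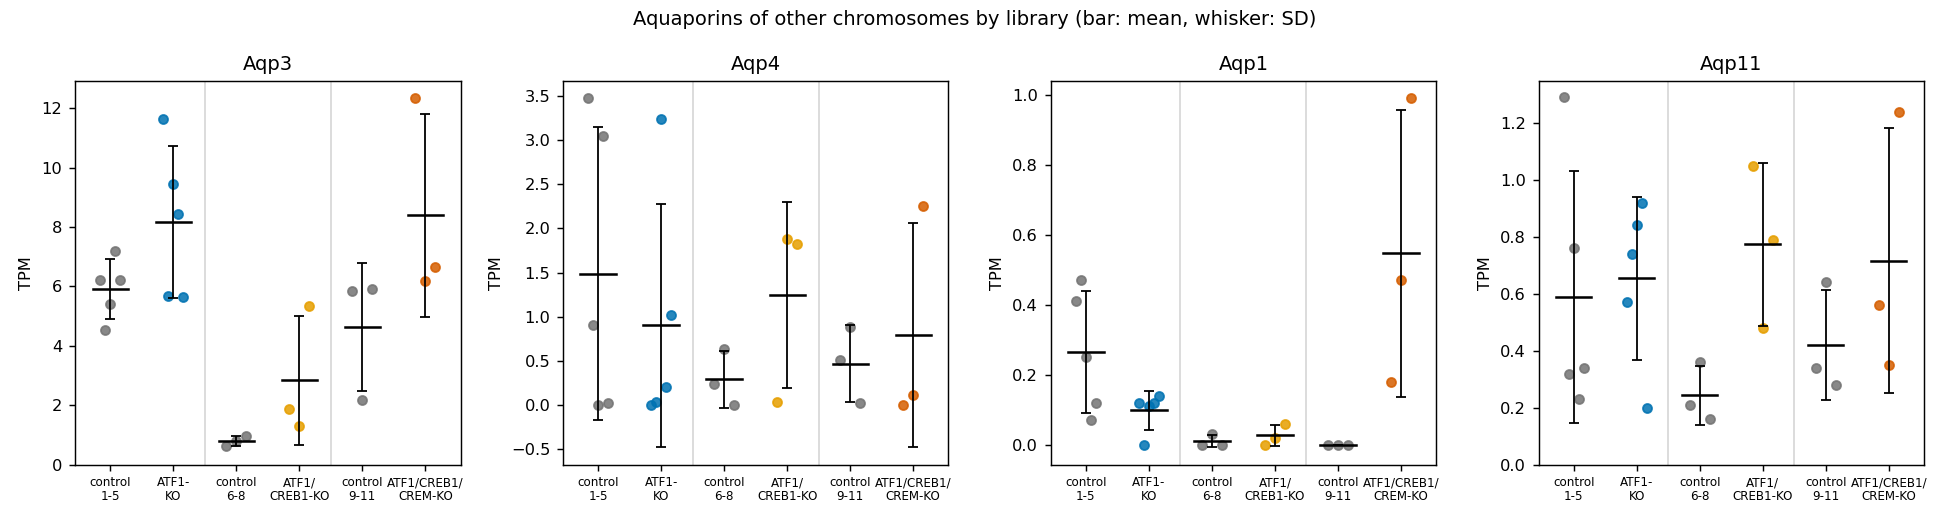
TPM of Aqp3, Aqp4, Aqp1 and Aqp11 in each library; points are libraries, bars are means and whiskers are SD. Aqp3 in the ATF1/CREB1/CREM-KO libraries lies between 6.18 and 12.3 TPM, above control clones 9 to 11, and the other genes stay under 3.5 TPM.

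Vasopressin signalling to aquaporin-2 was read from a list of 23 genes, from the receptor to vesicle traffic, of which 21 could be tested. None was called in ATF1-KO or ATF1/CREB1-KO. In the ATF1/CREB1/CREM-KO libraries 2 were lower and 1 higher, where 5.26% and 3.91% of all genes were, and the median change was -0.09, against -0.05 over all genes. These counts are near the shares over all genes. Pde4b, a phosphodiesterase that degrades cyclic AMP, changed by -4.47 (limma adjusted p = 4.13e-04), and Prkacb, a catalytic subunit of protein kinase A, by -0.71 (adjusted p = 0.0158). Rab11a, a GTPase of recycling endosomes, rose by 0.53 (adjusted p = 0.0332). The receptor Avpr2 changed by -0.37 and did not pass (adjusted p = 0.132). Of the 10 principal cell markers tested here 1 was called, Aqp2, which is near the 9.17% over all genes. Fxyd4 was at -2.27 (adjusted p = 0.0809) and Gata3, a transcription factor of collecting duct cells, at -0.38 (adjusted p = 0.0771).

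Likeness to Aqp2 was measured as Pearson's r over 22 libraries, after the own-run control mean of log2(TPM + 1) was subtracted from each. The 4 most alike of 13294 genes were Pde4b at 0.960, Alpk1 at 0.932, Kptn at 0.920 and Gm20008 at 0.919. The libraries share runs and the 3 ATF1/CREB1/CREM-KO libraries carry these values: without them r fell to between 0.20 and 0.45 over 19 libraries. Among the 10 genes, Aqp5 had an r of 0.780 and ranked 177th, Aqp6 had 0.652 and ranked 599th, and Bcdin3d had 0.537. Without the ATF1/CREB1/CREM-KO libraries the values were 0.05 for Aqp5, -0.57 for Aqp6 and -0.22 for Bcdin3d. Racgap1 had 0.244 and Aqp3 -0.294 over all 22.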

How the data were processed

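The authors deposited TPM values per gene and library. STAR and RSEM are named in the submitters' processing notes, and the build is not given in the sources used here. Each column sums to 999999 to 1000001, and none of the 22 columns duplicated another. Per the labels' protocols, cDNA was made with a SMARTer V4 kit and tagmented with Nextera XT. Differences were tested with limma 3.58.1 in R 4.3.3 (variance trend, two-sided) on log2(TPM + 1), over genes averaging 1 TPM or more in the comparison, against own-run control clones. This scale understates changes of low genes. P-values were adjusted over all genes tested by the Benjamini-Hochberg method and called under 0.05. The contrast against Aqp2 used each gene's own variance, since all genes share the Aqp2 values and moderation then no longer reflects 6 libraries; this and the ratio test were added after seeing the data. The 10 genes are always named, neighbours by position and adjusted p, and like genes by r. Members and lists were chosen with earlier results of these data known. The test was tried on simulated data. Locations are from GENCODE M21, promoters from RefSeq.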

Additional observations from a re-analysis of the deposited data

Results flagged for a closer look

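The Aqp2 change differed between 2 knockout labels by a direct test, with an own-run difference of ATF1/CREB1/CREM-KO minus ATF1/CREB1-KO of -5.98 on the log2 scale (limma adjusted p = 9.38e-06). For Aqp1 every ATF1-KO library was below its own-run control mean, by -0.19 on average, and every ATF1/CREB1/CREM-KO library was above, by 0.60 on average. Control clones 9 to 11 were all listed at 0, so no library could lie below them, and the ATF1-KO libraries overlapped their control clones. The difference was not tested, all values were under 1 TPM, and no direction is read from it. In 20 groups of 5 libraries, 2 had a library far from the others, where chance flags about 1 in 20. Bcdin3d was 24.1 TPM in ATF1-KO replicate 2, against 21.9 to 22.5 TPM in the other libraries of that label. Aqp1 was listed at 0 in ATF1-KO replicate 2, and reached 0.14 TPM in the others.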

How the results depend on the processing

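The Aqp2 decrease in ATF1/CREB1/CREM-KO passed under every alternative run, and Aqp2 was not called in either of the other labels. The number of genes called moved more. For ATF1/CREB1-KO it was 9, and became 0 with no filter on low values, 18 with median-ratio scaling, 609 with run as a covariate and 4260 against all 11 control clones. For ATF1/CREB1/CREM-KO it was 1216, and became 710 with no filter and 137 against all 11 control clones. The contrast against Aqp2 with moderated variances called 13257 genes and 23791 with no filter. The comparison of the last 2 labels called 25 genes and 16 with a pseudocount of 0.1. The cause was not tested. With 1 library left out, the counts ran from 0 to 1 for ATF1-KO, from 0 to 60 for ATF1/CREB1-KO, from 185 (without control clone 9) to 3317 (without ATF1/CREB1/CREM-KO replicate 1) for ATF1/CREB1/CREM-KO, and from 7 to 59 for the comparison of labels.

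Against all 11 control clones the median change of all genes was -0.96 in ATF1/CREB1-KO, where 92.0% of calls were lower against 55.6% in the own-run fit, and signs turned for Aqp5 (-0.34) and Bcdin3d (0.22) in ATF1-KO, for Aqp6 (-0.16), Bcdin3d (-0.62) and Aqp3 (-0.36) in ATF1/CREB1-KO, and for Racgap1 (0.36) in ATF1/CREB1/CREM-KO. Racgap1 in ATF1/CREB1-KO passed there at -2.22 (adjusted p = 0.0446). With 1 library left out, changes ran from -0.30 to 0.28 for Aqp5 and -0.089 to 0.060 for Bcdin3d in ATF1-KO, and from -0.20 to 0.54 for Aqp5, -0.66 to 0.12 for Racgap1 and -0.34 to 0.30 for Bcdin3d in ATF1/CREB1-KO. The difference between labels ran from -0.41 to 0.38 for Racgap1 and from -0.56 to 0.25 for Aqp3. With a replicate block in ATF1-KO 0 genes were called and Aqp2 kept 0.56 (adjusted p = 0.707). The numbers did not pair the libraries: correlations of same-numbered deviations ran from -0.10 to 0.08, and only number 5 matched its own best. Depth is unknown, so the counting error of values near 0 TPM, where it weighs most, cannot be estimated.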
